A study of Sus scrofa with 8 samples.

Results

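Transcripts of cytokines, chemokines and their receptors were followed in lung of Duroc and Tibetan pigs, each kept at a high and a low site. Of 43603 probes outside the control spots, 94 had a symbol that was TNF or began with IL and a digit, CCL, CXCL, CCR, CXCR, TNFSF, TNFRSF, IFNA, IFNB, IFNG, IFNAR or IFNGR. A probe was kept where the scanner software flagged it well above background on at least 1 array, which left 89 probes for 71 genes, of 3964 genes with a symbol. The probes of IL12A, IL13, IL17A, IL21 and IFNB1 did not reach that level on any array. A symbol came from the RefSeq accession in the array design for 69 probes (59 genes). The other 20 probes were named only by tables of the study, of which 18 were in tables made by breed, interaction or phenotype impact in these same arrays, so the values of the 20 are described without a test. None of the 94 probes carried the symbol IL1B or IFNG, and whether a probe without a symbol reads either gene was not tested.

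The groups were native Tibetan pigs at 3500 m (TH), Tibetan pigs moved at 1 month of age to 40 m (TL), Duroc pigs moved at the same age to 3500 m (DH) and native Duroc pigs at 40 m (DL). All pigs were sampled at 6 months, and whole lung RNA of each of 8 animals was hybridized to its own 1-color array, 2 arrays per group. A change of altitude within a breed is therefore also a change from native to migrant. The paper names a single farm for each altitude, in different provinces, so altitude and farm cannot be told apart either. In bulk lung, fewer cells of a type and less RNA per cell cannot be told apart.

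The TL arrays stood apart, with a median raw spot signal of 324 and 333.5 against 207.5 to 230 on the other arrays. The slides divided the groups as natives (TH and DL, slide 1) and migrants (TL and DH, slide 2), so slide and breed by altitude interaction cannot be told apart. Lung markers were bright on all arrays (mean log2 over 6 genes from 15.3 to 15.8). Between the arrays of a group, cytokine and receptor probes differed by a median of 0.03 to 0.05 log2 units. All p-values below compare groups against that small spread, which may be largely technical, and the number of arrays limits their precision.

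Chemokines are secreted proteins that guide leukocytes along gradients through G protein-coupled receptors, and the position of their first cysteines divides them into CC and CXC families. Interleukins, interferons and TNF family ligands signal between immune, epithelial and endothelial cells through receptors whose subunits are often shared. In lung, alveolar macrophages and the airway epithelium are known sources of neutrophil- and monocyte-attracting chemokines, while other chemokines direct the traffic of resident and recirculating lymphocytes.

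Levels are given as log2 values of the deposited normalized table. The breed effect is Tibetan minus Duroc averaged over altitudes, the altitude effect is high minus low averaged over breeds, and the interaction is the altitude difference in Tibetan pigs less that in Duroc pigs. A probe was called at an FDR below 0.0001 in limma with Benjamini-Hochberg adjustment over 34406 tested probes. Of the 69 RefSeq-named probes, 31 were called for altitude, 23 higher and 8 lower at high altitude. The called share over all tested probes was 26.3% (14% higher and 12.2% lower) and over the 2478 RefSeq-named ones 36% (26.2% higher and 9.85% lower). A breed effect was called for 22 probes, 6 higher and 16 lower in Tibetan pigs, beside 27.4% of all tested probes (12.8% higher and 14.6% lower) and 28.6% of RefSeq-named ones (9.28% higher and 19.3% lower). The interaction was called for 19 probes, 17 positive and 2 negative, beside 28.4% of all tested probes (14.9% and 13.5%) and 27.8% of RefSeq-named ones (22% and 5.85%). As shares of the 69 probes these are 44.9% for altitude, 31.9% for breed and 27.5% for the interaction, so that breed and interaction lay near the background. Over the members the median altitude, breed and interaction effects were 0.21, -0.27 and 0.48, against 0.18, -0.11 and 0.37 over RefSeq-named probes and 0.01, -0.07 and 0.21 over all tested probes.

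**Figure D1:**
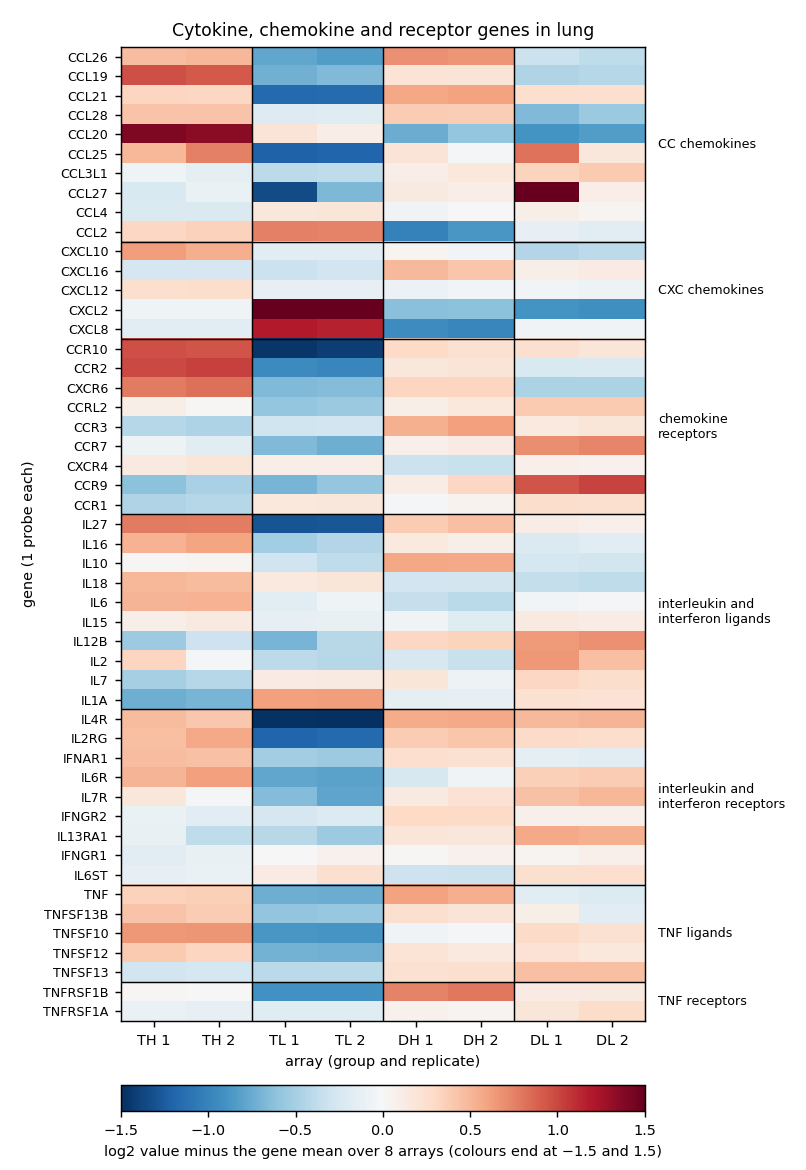
Log2 value of each gene minus its mean over the 8 arrays (color, ending at -1.5 and 1.5), for 50 genes whose probe with a RefSeq accession (the brightest probe of the gene) was well above background on all arrays. Columns are arrays by group and replicate, rows are genes ordered by role and within a role by altitude effect. The columns of a group look alike, and the TL columns are the lowest for most receptors and TNF ligands but the highest for CXCL2 and CXCL8.

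TL set much of this pattern. Both TL arrays were the lowest of the 8 for 41 of the 69 probes, beside 46.5% of RefSeq-named probes, and the highest for 7, beside 13.5%. For that reason the altitudes were also compared within each breed. Within Duroc pigs, where no TL array enters the difference, DH minus DL was called for 11 probes, 8 higher (among them CCL19, CCL26, CCL28, CXCR6, IL10 and TNF) and 3 lower (CCL2, CXCL8 and IFNGR1). The background for this comparison was 9.95% of all tested probes (5.83% higher and 4.12% lower) and 12.3% of RefSeq-named ones (6.42% higher and 5.93% lower). Within Tibetan pigs, TH minus TL was called for 32 probes, 24 higher and 8 lower, beside 37.1% of all tested probes (20.5% and 16.6%) and 43.2% of RefSeq-named ones (33.3% and 9.93%). A fit of the TH, DH and DL arrays alone had fewer degrees of freedom. At the same threshold it called 0 of the 69 probes by limma for DH minus DL or TH minus DH. Its background was 0% and 0.663% of all tested probes, and 0% and 1.78% of RefSeq-named ones.

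For 20 of the 69 probes (17 genes), every array at high altitude lay above every array at low altitude, beside 11.9% of all tested probes and 22.4% of RefSeq-named ones. Among the genes were CCL19, CCL21, CCL26, CCL28, CXCL10, TNF, TNFSF13B, CCR2, CXCR6, IL10, IL16, IL27, IL5 and IFNAR1. For 6 probes (CCL4, CXCL8, IL1A, IL6ST, 1 of 2 of CCR1 and 1 of 3 of IFNGR1) every array at high altitude was below, beside 9.09% and 10.9%. Of these 6, 3 were still below after scaling to the 75th percentile. This separation holds within each breed by construction. With the TL arrays left out it was met by 23 and 19 probes, beside 29.5% and 27.1% of RefSeq-named ones. Of the genes described below, those that are not among the largest effects or the inflammatory genes fixed for naming were chosen after their values were seen.

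CCL19, CXCL10 and CXCR6 were called higher at high altitude, and for each of them both high groups lay above both low groups. CCL19, a ligand of CCR7 that guides T cells and dendritic cells, had log2 levels of 14.19 and 14.15 in TH, 12.51 and 12.56 in TL, 13.43 and 13.42 in DH, and 12.78 and 12.80 in DL. The groups did not overlap, with TH highest and TL lowest. Its altitude effect was 1.14 ± 0.02 (standard error), 2.20-fold, with an adjusted p of 3.73e-06 in limma, and DH exceeded DL by 0.64. CXCR6, the receptor of CXCL16 found on resident memory T cells, measured 13.77 and 13.81 in TH, 12.33 in both TL arrays, 13.30 and 13.31 in DH, and 12.52 and 12.51 in DL. The altitude effect was 1.13 ± 0.02 or 2.18-fold (adjusted p = 2.95e-06 in limma). CXCL10 attracts activated T cells through CXCR3 and is induced by interferon. Its brighter probe read 16.60 and 16.52 in TH, 15.80 and 15.82 in TL, 16.02 and 15.93 in DH, and 15.53 and 15.58 in DL. The altitude effect was 0.58 ± 0.03 for this probe and 1.14 ± 0.03 for the dimmer one, and both passed (adjusted p = 5.25e-05 and 4.87e-06 in limma), although DH minus DL (0.42 and 0.63) passed for neither. CXCL9, a second ligand of CXCR3 named only by the tables, was at 10.89 and 10.83 in DH but between 8.33 and 8.79 on all other arrays, so CXCL9 and CXCL10 differed in the group that was highest.

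Markers of T cells moved in the same direction. Of 9 RefSeq-named probes for 6 of 10 listed T cell genes, 6 were called higher at high altitude and 0 lower. The shares over RefSeq-named probes were 26.2% higher and 9.85% lower. The median altitude effect of the 9 probes was 1.01. The mean log2 level over these genes was 11.2 to 11.3 on the TH arrays, 10.3 on the TL arrays, 11.2 on the DH arrays and 10.6 on the DL arrays. CD2, a T cell adhesion molecule, was 10.96 and 10.95 in TH, 9.52 and 9.51 in TL, 10.84 and 10.83 in DH, and 9.83 and 9.84 in DL, whereas the brighter probe of CD3G had an altitude effect of 0.14 that was not called. Of 6 listed B cell markers, 2 had a RefSeq-named probe. Both were high in TH alone, and CD79A averaged 12.48 there against 8.28 (TL), 9.57 (DH) and 9.80 (DL). The part of T cell number in the chemokine and receptor levels was not tested.

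CCL21, the second CCR7 ligand, did not track CCL19. It was at 11.16 and 11.15 in TH, 9.68 and 9.69 in TL, 11.42 and 11.44 in DH, and 11.10 and 11.09 in DL. Only TL lay far from the rest, and TH exceeded DL by 0.06. CCR7 itself was higher in Duroc than in Tibetan pigs and had an altitude effect of -0.02 ± 0.03, with 10.73 and 10.63 in TH, 10.14 and 10.06 in TL, 10.87 and 10.93 in DH, and 11.50 and 11.53 in DL. The receptor was thus highest in DL, while its ligand CCL19 was highest in TH.

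TNF, a central inflammatory cytokine, and IL10, which restrains inflammation, were both higher at high altitude. The brightest of 3 TNF probes read 12.01 in both TH arrays, 10.92 and 10.91 in TL, 12.26 and 12.21 in DH, and 11.49 and 11.45 in DL. DH was highest and TL lowest, and the altitude effect was 0.93 ± 0.02 or 1.90-fold (adjusted p = 4.62e-06 in limma), a call that was lost when either TL array was left out. The other TNF probes gave 1.08 ± 0.05 and 0.95 ± 0.07, of which the latter was not called (adjusted p = 0.000137 in limma). IL10 was at 12.13 and 12.15 in TH, 11.81 and 11.73 in TL, 12.69 and 12.68 in DH, and 11.85 and 11.84 in DL, an altitude effect of 0.60 ± 0.02 (adjusted p = 1.67e-05 in limma). DH stood above all other arrays, and the difference between DH and DL (0.84) was larger than that between TH and TL (0.37). Leaving out any 1 array ended the IL10 call, with the effect between 0.59 and 0.62.

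CCL26 and CCL28 also followed altitude in both breeds. CCL26, an eotaxin that attracts eosinophils through CCR3, was at 10.48 and 10.52 in TH, 9.24 and 9.19 in TL, 10.71 and 10.68 in DH, and 9.69 and 9.64 in DL. Its altitude effect of 1.16 ± 0.02 (2.23-fold, adjusted p = 4.07e-06 in limma) was made up of 1.29 in Tibetan and 1.02 in Duroc pigs. CCL28, a mucosal chemokine that binds CCR10 and CCR3, averaged 11.12 (TH), 10.51 (TL), 11.07 (DH) and 10.09 (DL), an effect of 0.80 ± 0.03. CCR2, the receptor of CCL2 on monocytes, was at 11.02 and 11.05 in TH, 9.07 and 9.05 in TL, 10.19 and 10.21 in DH, and 9.79 and 9.80 in DL. It was higher at high altitude by 1.19 ± 0.02 (2.28-fold, adjusted p = 2.80e-06 in limma), which came mostly from the Tibetan groups, since DH exceeded DL by 0.40.

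Fewer genes were lower at high altitude. CXCL8, which recruits neutrophils, was 10.94 in both TH arrays, 12.29 and 12.25 in TL, 10.16 and 10.11 in DH, and 11.04 in both DL arrays. In each breed the pigs at high altitude had the lower level, by 1.12 ± 0.02 on average or 2.17-fold (altitude effect -1.12, adjusted p = 3.08e-06 in limma). IL1A, an alarmin of the IL1 family, was 9.22 and 9.25 in TH, 10.57 in both TL arrays, 9.82 and 9.83 in DH, and 10.18 and 10.17 in DL. Its altitude effect was -0.84 ± 0.02 (adjusted p = 3.56e-06 in limma), and TH lay lowest and TL highest. CCL2 was lower in DH (13.64 and 13.78) than in DL (14.53 and 14.49), and lower in TH (14.97 and 15.00) than in TL (15.41 and 15.40). When arrays were scaled to their 75th percentile, the altitude effect of this brighter CCL2 probe went from -0.61 to -0.23. It was no longer called (adjusted p = 0.0027 in limma), and the interaction of 1.10 put TH above TL. On the second CCL2 probe the altitude effect went from -0.92 to -0.58 and stayed called (adjusted p = 2.56e-05 in limma), with an interaction of 1.23. CCR1, a receptor of monocytes and neutrophils, was called lower on both of its probes (-0.42 and -0.38), but these values became -0.02 and 0.02 under that scaling.

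**Figure D2:**
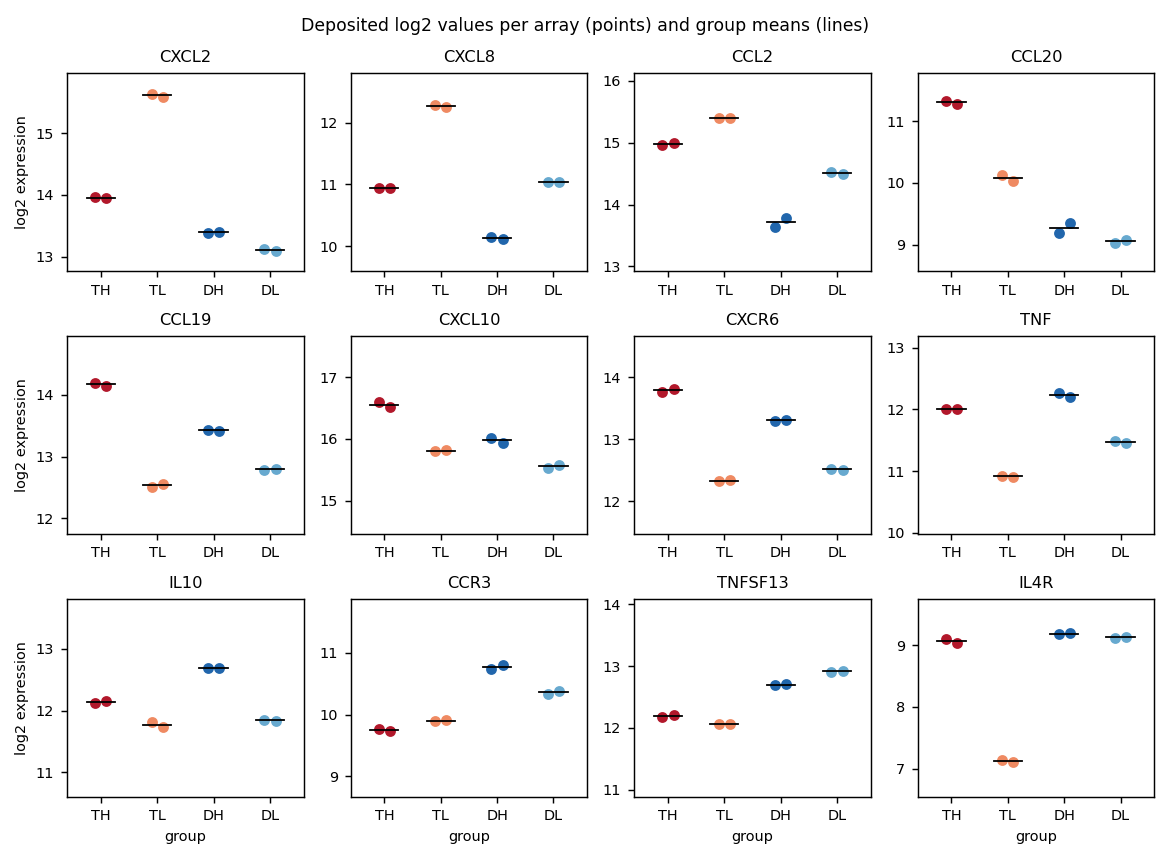
Log2 values of 12 genes on each array (points, 2 per group) with group means (lines). Every panel spans the same number of log2 units. CCL19, CXCL10, CXCR6, TNF and IL10 are higher in TH and DH than in TL and DL, CXCL8 is lower, CXCL2, CCL2 and CCL20 are higher in both Tibetan groups, CCR3 and TNFSF13 are lower in them, and IL4R is low in TL.

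Between the breeds, 6 probes for 5 genes (CXCL2, CXCL8, CCL2, CCL20 and IL18) were called higher in Tibetan pigs. CXCL2, a neutrophil chemokine that acts through CXCR2, was 13.96 and 13.95 in TH, 15.64 and 15.59 in TL, 13.39 and 13.41 in DH, and 13.12 and 13.10 in DL. All Tibetan arrays exceeded all Duroc arrays, with a breed effect of 1.53 ± 0.02 or 2.89-fold (adjusted p = 1.61e-06 in limma). TL contributed most, since TH exceeded DH by 0.56. CCL20, which attracts dendritic cells and lymphocytes through CCR6, was 11.32 and 11.28 in TH, 10.12 and 10.03 in TL, 9.19 and 9.35 in DH, and 9.03 and 9.08 in DL. Here TH was highest, and the breed effect was likewise 1.53, with a standard error of 0.05 (2.88-fold, adjusted p = 7.57e-06 in limma). Its call was lost when any TH, TL or DL array was left out, while the effect stayed between 1.49 and 1.57.

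CCL2, the main monocyte chemokine, was higher in Tibetan pigs by 1.08 ± 0.04 (2.12-fold, adjusted p = 9.30e-06 in limma) on its brighter probe and by 1.22 ± 0.03 on the other. DH had the lowest level, and the difference was 1.28 at high altitude and 0.89 at low altitude. CXCL8 was higher in Tibetan pigs by 1.01 ± 0.02 (2.02-fold, adjusted p = 2.60e-06 in limma), yet the breeds overlapped, because the native groups TH (10.94) and DL (11.04) were close. IL18, an IL1 family cytokine that induces interferon-gamma, was 12.95 and 12.94 in TH, 12.60 and 12.64 in TL, 12.17 and 12.18 in DH, and 12.10 and 12.08 in DL. Every Tibetan array was above every Duroc array, by 0.65 ± 0.02 on average (1.57-fold, adjusted p = 5.63e-06 in limma), a call that was lost without the second TL array or either DL array. In all, 6 of 69 probes had every Tibetan array above every Duroc array (2 of CCL2, and 1 each of CCL20, CXCL2, CXCR4 and IL18), beside 7.39% of all tested probes and 8.11% of RefSeq-named ones.

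Of 7 listed neutrophil markers, only PGLYRP1 had a RefSeq-named probe above background. Probes without such a name were not searched for the others. It averaged 14.54 (TH), 10.89 (TL), 11.60 (DH) and 11.15 (DL). TH stood apart, and TL, where CXCL2 and CXCL8 were highest, lay near the Duroc groups. Of 8 listed macrophage and monocyte markers, 3 had a RefSeq-named probe (CD14, CD163 and LYZ). Their mean was 14.7 on the TH arrays, 15.2 to 15.3 on the TL arrays, 15.8 on the DH arrays and 16.0 on the DL arrays. Among these, 4 of 6 probes were called lower and 0 higher in Tibetan pigs, beside 19.3% lower and 9.28% higher over RefSeq-named probes. The part of these cells in the chemokine levels was not tested.

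The 16 probes called lower in Tibetan pigs, a share near that of RefSeq-named probes, came from all groups of genes. Of 11 probes for 10 chemokine receptors, 6 were called lower (CCR3, CCR7, CCR9, CCR10, CCRL2 and 1 of 2 of CCR1) and 0 higher, beside 19.3% lower and 9.28% higher over RefSeq-named probes. The altitudes differed in this. TH minus DH was called higher for 2 and lower for 2 of the 11 (8.84% and 6.38% of RefSeq-named probes). TL minus DL was called higher for 0 and lower for 5 (7.83% and 27.9%). CCR10 was 0.69 higher in TH than in DH, and CCRL2 differed there by -0.07. CCR3, the eosinophil receptor for eotaxins, was 9.77 and 9.74 in TH, 9.89 and 9.91 in TL, 10.73 and 10.81 in DH, and 10.34 and 10.38 in DL. Both Duroc groups lay above both Tibetan groups, and the breed effect was -0.74 ± 0.02 (1.67-fold lower, adjusted p = 9.61e-06 in limma), called only in the fits of all arrays and of all but 1 DH array. CCR9, the receptor of CCL25, had the same order of breeds, with 7.09 and 7.22 in TH, 7.02 and 7.13 in TL, 7.82 and 8.02 in DH, and 8.66 and 8.72 in DL. Its breed effect was -1.19 ± 0.06 (2.28-fold lower, adjusted p = 4.37e-05 in limma), and no fit without 1 array called it, with values from -1.24 to -1.14. CCR7 was lower in Tibetan pigs by 1.76-fold (-0.82 ± 0.03, adjusted p = 1.94e-05 in limma), likewise not called without any 1 array. Of 3 listed mast cell markers, KIT and MS4A2 had a RefSeq-named probe. Both were highest in DL, as CCR9 and CCR7 were, and the brighter KIT probe averaged 12.63 (TH), 13.07 (TL), 13.12 (DH) and 14.74 (DL). The part of mast cells in these receptor levels was not tested.

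In the TNF family, 2 of 9 ligand probes (TNFSF13 and 1 of TNF) and 1 of 3 receptor probes were called lower in Tibetan pigs and 0 higher, near the 19.3% of RefSeq-named probes called lower. TNFSF13, the B cell survival factor APRIL, was 12.18 and 12.20 in TH, 12.06 in both TL arrays, 12.69 and 12.71 in DH, and 12.91 and 12.92 in DL, an effect of -0.68 ± 0.02 (1.61-fold lower, adjusted p = 4.01e-06 in limma). TNFRSF1B, which encodes TNF receptor 2, read 9.75 and 9.73 in TH, 8.82 in both TL arrays, 10.47 and 10.52 in DH, and 9.85 and 9.87 in DL on its brighter RefSeq-named probe. The Tibetan arrays were all below the Duroc arrays, by 0.90 on average (breed effect -0.90 ± 0.02, adjusted p = 3.18e-06 in limma), and within each breed the level was higher at high altitude. The dimmer probe gave -0.83 ± 0.06 and was not called (adjusted p = 0.000173 in limma). TNFRSF1A, which encodes TNF receptor 1, ranged from 15.80 to 16.26 over the 8 arrays and passed for no effect, but under scaling to the 75th percentile it passed for breed (-0.66), altitude (0.42) and interaction (0.80).

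CXCL16, the transmembrane ligand of CXCR6, was 16.25 in both TH arrays, 16.19 and 16.23 in TL, 16.99 and 16.93 in DH, and 16.59 and 16.63 in DL. It was lower in Tibetan pigs by 0.55 on the log2 scale (breed effect -0.55 ± 0.02), while its receptor followed altitude. This contrast depended on the scaling. The altitude effect of this CXCL16 probe was 0.20 and not called, but 0.67 and called under the 75th percentile (adjusted p = 8.36e-06 in limma). CCL3L1, a macrophage inflammatory protein that attracts leukocytes, was lower by 0.49 (breed effect -0.49 ± 0.03). It belongs to a family of near-identical copies whose transcripts this probe may not separate. Altogether 17 probes (17 genes) had every Tibetan array below every Duroc array, beside 14.4% of all tested probes and 16.4% of RefSeq-named ones. Within the altitudes, TH minus DH was called for 18 probes, 12 higher and 6 lower, beside 9.33% of all tested probes (4.17% and 5.16%) and 15.2% of RefSeq-named ones (8.84% and 6.38%). TL minus DL was called for 26, 7 higher and 19 lower, beside 37.5% (16% and 21.5%) and 35.7% (7.83% and 27.9%).

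**Figure D3:**
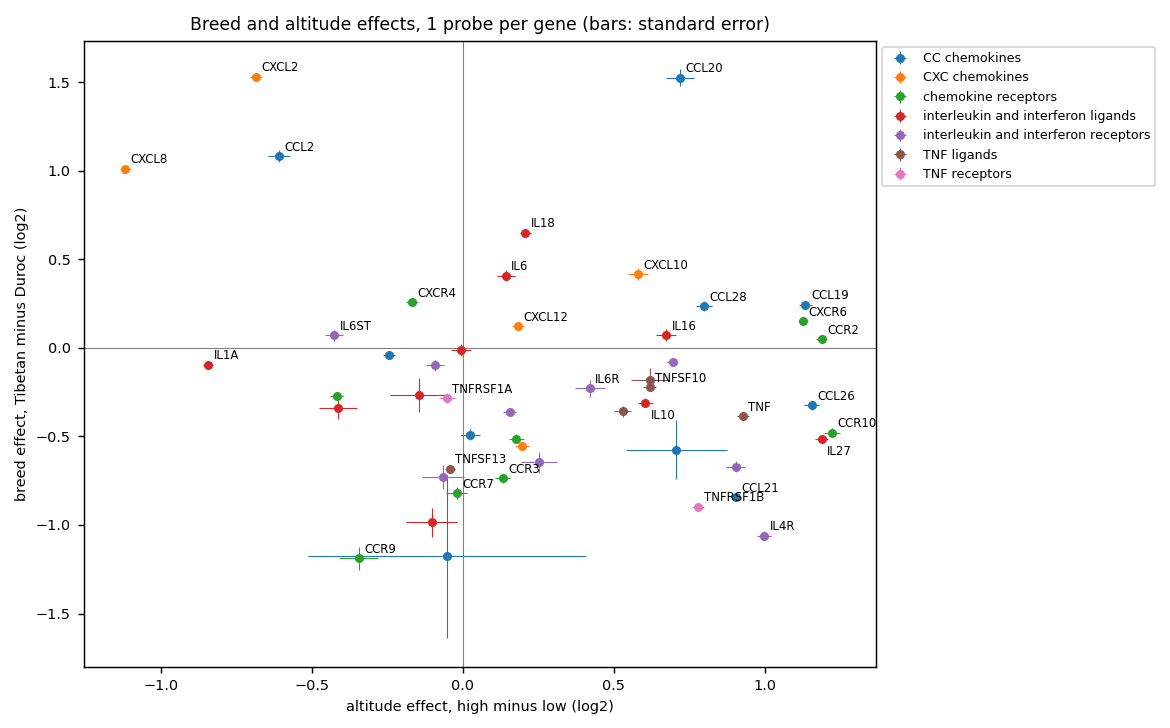
Breed effect (Tibetan minus Duroc, log2) against altitude effect (high minus low, log2) for the 50 genes of the heat map, 1 probe per gene, colored by role, with bars of 1 standard error. CXCL2, CXCL8 and CCL2 lie at the upper left (on average higher in Tibetan pigs and lower at high altitude), CCL19, CXCR6 and CCR2 at the right near no breed effect, and IL4R, CCL21 and TNFRSF1B at the lower right. For CXCL2 the altitude effect came from the Tibetan groups, since DH exceeded DL by 0.29.

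Some genes owed their breed and altitude effects wholly or mostly to TL. IL4R, the receptor subunit for IL4 and IL13, was 9.10 and 9.03 in TH, 7.15 and 7.11 in TL, 9.18 and 9.19 in DH, and 9.11 and 9.14 in DL. The groups other than TL lay between 9.03 and 9.19, and the effects of breed (-1.06 ± 0.02), altitude (1.00 ± 0.02) and interaction (1.87 ± 0.05, adjusted p = 4.11e-06 in limma) all rested on TL. IL2RG, the common gamma chain of several interleukin receptors, was similar, with means of 9.18 (TH), 7.50 (TL), 9.07 (DH) and 8.95 (DL). CCR10, which binds CCL27 and CCL28, was 10.20 and 10.17 in TH, 7.78 and 7.82 in TL, 9.53 and 9.46 in DH, and 9.47 and 9.42 in DL. Its interaction of 2.34 ± 0.05 (adjusted p = 3.02e-06 in limma) was the largest positive one among the 69 probes. Its breed effect averaged over altitudes was -0.48, whereas at high altitude TH exceeded DH by 0.69.

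IL27, a cytokine of the IL12 family, was 9.95 and 9.94 in TH, 7.88 and 7.89 in TL, 9.55 and 9.62 in DH, and 9.28 and 9.25 in DL. It was low in TL, and its interaction was 1.74 ± 0.04 (adjusted p = 3.90e-06 in limma). TNFSF10, the death ligand TRAIL, was 13.05 and 13.06 in TH, 11.53 and 11.52 in TL, 12.35 and 12.39 in DH, and 12.69 and 12.63 in DL. In Tibetan pigs it was higher at high altitude, whereas DH was below DL by 0.29, and the interaction was 1.83 ± 0.04. IL6R, the IL6 receptor, had the same order of groups and an interaction of 1.88 ± 0.10. The negative interactions belonged to CXCL2 (-1.95 ± 0.04, adjusted p = 2.29e-06 in limma) and IL1A (-0.99 ± 0.03), the levels of which were highest in TL. As the interaction is also the contrast between slides, no value within a slide bears on it. For breed and altitude, both slides hold both breeds and both altitudes. A fit with slide in place of the interaction is the same model under another name. Its equal breed and altitude effects and calls were therefore fixed in advance and test nothing. Within slides, breed and altitude change together. TH minus DL was called for 21 probes, 14 higher and 7 lower, beside 14.1% of all tested probes (6.9% and 7.24%) and 21.8% of RefSeq-named ones (12.8% and 8.92%). TL minus DH was called for 35, 8 higher and 27 lower, beside 33.9% (15.1% and 18.8%) and 38.7% (9.97% and 28.7%). CXCR6 was 1.28 higher in TH than in DL and 0.98 lower in TL than in DH (-0.98), and CXCL2 was higher in Tibetan pigs by 0.85 and 2.22.

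Other inflammatory genes moved less. IL6, an acute phase cytokine, was 9.69 and 9.71 in TH, 9.02 and 9.12 in TL, 8.84 and 8.78 in DH, and 9.15 and 9.16 in DL. Only its interaction passed (0.97 ± 0.06, adjusted p = 7.15e-05 in limma). On its second probe the interaction of 1.01 ± 0.08 did not (adjusted p = 0.000181 in limma). On the first probe the interaction was called neither under the 75th percentile (0.64, adjusted p = 0.000234 in limma) nor after normal-exponential correction (0.84). Under the 75th percentile the breed effect of IL6 was called instead, on both probes (0.61 and 0.77). IL6ST, the signal-transducing subunit for IL6 family cytokines, lay between 9.51 and 10.09 and was not called, with an altitude effect of -0.43 ± 0.03 (adjusted p = 0.000128 in limma). CXCL12 and its receptor CXCR4, which retain and home leukocytes and progenitors, were not called for any effect on their RefSeq-named probes, with ranges of 12.04 to 12.42 and 11.87 to 12.39. These outcomes depended on the scaling, since under the 75th percentile the altitude effect (0.34) and interaction (0.74) of CXCL12 and the interaction of CXCR4 (0.87) were called, as was the altitude effect of IL6ST (-0.49).

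Of the 69 RefSeq-named probes, 8 were not well above background on every array, and 0 of these were called. They were the probes of TNFSF4, TNFSF8, IFNA1, IL4, IL5, IL12RB2, IL18R1 and IL2RA. IL2RA, a subunit of the high-affinity IL2 receptor, was not well above background on either TL array. Against the level that TL allows, TH was at least 3.64-fold higher, DH at least 4.02-fold and DL at least 2.95-fold. IL5, the eosinophil growth cytokine, was not well above background in DL, against which TH was at least 1.93-fold and DH at least 1.77-fold higher. Each bound takes, for every dim array, the higher of the probe's own value and the faintest value that counted as well above background there, and averages these. Neither gene passed for altitude (adjusted p = 0.0134 for IL2RA and 0.0120 for IL5 in limma). CCL27, a skin-homing chemokine, was above background on all arrays but differed between the DL arrays (8.54 and 6.61), so its effects were smaller than its spread.

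The probes named only by the tables carried large differences, as their choice implies. CCL24, an eotaxin like CCL26, was 10.98 and 11.04 in TH, 10.95 and 11.01 in TL, 14.15 and 14.21 in DH, and 12.38 and 12.39 in DL. Like its receptor CCR3 it was higher in both Duroc groups and highest in DH, whereas CCL26 followed altitude. CCL5, which attracts T cells and monocytes, averaged 12.55 in TL and 9.74 in DL, with TH (10.68) and DH (10.88) between them. CCL23, a myeloid chemokine, had its lowest mean in TH (14.40), followed by TL (14.73), DH (15.40) and DL (16.01). Both CXCL14 probes were highest in DL (16.45 and 16.51) and lowest in TL (14.38 and 14.03). IL1R2, the decoy receptor of IL1, was 10.58 and 10.68 in TH, 9.27 and 9.32 in TL, 8.52 and 8.56 in DH, and 9.68 and 9.70 in DL.

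For several genes, a probe named by the tables did not follow the RefSeq-named probe. Of TNFRSF1B, the table-named probe was 9.57 and 9.60 in TH, 13.13 and 13.10 in TL, 9.84 and 9.79 in DH, and 9.05 and 9.06 in DL. It was highest in TL, where both RefSeq-named probes of this gene were lowest (means of 8.82 and 8.41). IL6ST had a table-named probe at 9.98 in TL and between 7.98 and 8.34 in the other groups on average, against a range of 9.52 to 10.08 in group means for its RefSeq-named probe. For CXCL16 the table-named probe was highest in TL (13.55) and for CXCR4 it was lowest there (6.70), unlike the RefSeq-named probes (16.21 in TL beside 16.25 in TH, and 12.30 beside 12.36). TNFRSF21, a death receptor known only through table-named probes here, had 1 probe highest in TL (11.61) and lowest in TH (9.13) and another highest in DH (15.48). For CXCL8, in contrast, the 2 kinds of probe gave breed effects of 1.01 and 0.96, and the probes of CCL2 and of TNF had the same order of groups. What each pair of probes detects was not tested, and for a gene with discordant probes the direction depends on the probe.

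**Figure D4:**
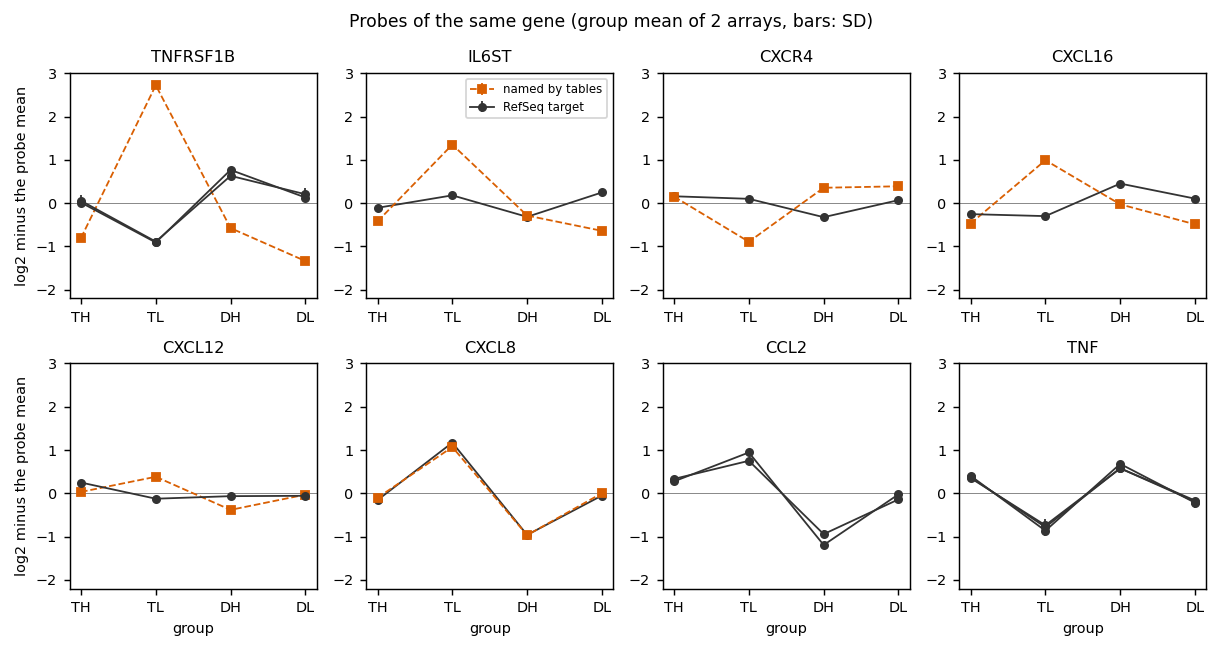
Group means of each probe (n = 2 arrays, bars are SD) minus the probe's mean over the groups, for 8 genes with several probes. Black circles are probes with a RefSeq target and orange squares are probes named only by the tables of the study. The kinds of probe diverge in TL for TNFRSF1B, IL6ST, CXCR4 and CXCL16 and coincide for CXCL8, and the probes of CCL2 and TNF follow one another.

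Of 41 listed cytokines and receptors whose symbols fall outside the prefixes above, 17 had a RefSeq-named probe above background (18 probes). The others were not searched among probes without such a name. For altitude 5 probes were called higher and 4 lower, for breed 3 and 4, and for the interaction 6 and 2, against RefSeq-named shares of 26.2% and 9.85%, 9.28% and 19.3%, and 22% and 5.85%. AMCF-II, a porcine CXC chemokine first isolated from alveolar macrophages, was 10.62 and 10.65 in TH, 9.44 and 9.45 in TL, 4.94 and 4.85 in DH, and 6.84 and 6.83 in DL. Both Tibetan groups were above both Duroc groups, as for CXCL2, and it was not well above background on the DH arrays (breed effect called, adjusted p = 7.80e-07 in limma). PPBP, a platelet CXC chemokine, was called lower in Tibetan pigs (-1.13), although only TH lay below the Duroc groups, with means of 10.17 (TH), 12.07 (TL), 12.58 (DH) and 11.92 (DL). CD70, a TNF family ligand on activated lymphocytes, was 10.05 and 10.08 in TH, 6.71 and 6.95 in TL, 8.80 and 8.70 in DH, and 7.83 and 7.85 in DL, higher at high altitude by 2.07. XCR1, a chemokine receptor of cross-presenting dendritic cells, and LTA, a relative of TNF, were higher at high altitude by 1.00 and 1.31. ACKR4, a scavenger receptor for CCL19, CCL21 and CCL25, was lowest in TH (9.90) and lower in Tibetan pigs (-1.25).

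Of 35 listed signal transducers, 14 had a RefSeq-named probe above background (23 probes), and the others were not searched among probes without such a name. For altitude 6 probes were called higher and 2 lower, for breed 3 and 4, and for the interaction 3 and 0, near the same RefSeq-named shares for altitude. STAT5A, which acts below IL2 and IL7 receptors, was higher at high altitude by 0.91. The probes of TYK2 and TRAF6 were called in opposite directions for altitude, at 0.89 and -0.98 on the brighter probe of each. JAK1, IRAK4 and STAT3 were not called for any effect, and IRAK4 averaged 12.39 to 12.40 in all groups.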

How the data were processed

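Lung RNA was measured on 8 Agilent 1-color arrays, 2 per group, with groups taken from the labels. The authors extracted spot signals with Feature Extraction (10.7.3.1 per the file headers, 9.1 per the labels). The deposited scanner files hold each spot's intensity and a flag for well above background. The deposited table holds log2 values, normalized by RMA as the methods state. Its columns share a median of 7.40 and follow the order of the processed signals almost exactly, and its exact steps are not known. No spot of a member was saturated, and 3 values carried an outlier flag.

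The rule for members used the deposited log2 values, which were fitted here by limma 3.58.1 in R 4.3.3 (breed, altitude and interaction, Benjamini-Hochberg over 34406 probes above background on at least 1 array, FDR below 0.0001 as in the methods). Tables and figures were made with Python 3.11.15, numpy 2.4.6, pandas 2.3.3 and matplotlib 3.10.9. Of 3250 probes with a RefSeq accession, 2683 matched a symbol, and 660 probes were also named by the tables of the study, 98.0% alike. Several probes of a gene are given separately, and the brightest RefSeq-named one leads. Named genes were the 6 largest breed effects and 4 largest altitude and interaction effects in each direction among called genes, plus fixed inflammatory genes. Members, gene lists and marker lists were chosen with earlier results of these data known. The fit was tested on simulated data.

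Replicate numbers did not pair the arrays: deviations of same-numbered arrays correlated between -0.04 and 0.09. Alternatives were a normal-exponential correction of the raw signals, scaling to the 75th percentile, other filters and thresholds, no moderation, an intensity trend, replicate or slide blocks, and fits without the TL arrays or any 1 array. Values of some genes are not reported here.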

Additional observations from a re-analysis of the deposited data

Results flagged for a closer look

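Altitude effects that differed between the breeds, by the interaction term in limma, were flagged for 11 of the genes named by rule. The interaction (log2) was 2.34 for CCR10, 1.88 for IL6R, 1.87 for IL4R, 1.83 for TNFSF10, 1.74 for IL27, 1.57 for CCR2, 1.20 for CCR7, 1.14 for CCL21 and 0.97 for IL6, and it was -1.95 for CXCL2 and -0.99 for IL1A. Each of these is also a contrast between the slides, and the 2 cannot be told apart. The IL6 interaction was called neither after normal-exponential correction (0.84) nor under the 75th percentile (0.64).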

How the results depend on the processing

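The number of breed calls (22 of 69) was 36 among probes above background on all 8 arrays, 37 with an intensity trend, 55 and 50 at an FDR below 0.05 and 0.01, and 41 with table-named probes included. Altitude calls (31) were 54 and 48 at these thresholds and 47 with table-named probes. Interaction calls (19) were 10 after normal-exponential correction, 32 with an intensity trend, 60 and 51 at these thresholds, and 34 with table-named probes. With the replicate number as a block, calls fell to 12 for breed, 16 for altitude and 8 for the interaction. Leaving out 1 array left 7 to 11 breed, 10 to 16 altitude and 6 to 8 interaction calls, all in the same direction, where a lone array was assumed to vary like the others. Breed calls of CCL2 (1 probe), CCL21, CXCL2, CXCL8, TNFSF13, TNFRSF1B and IL4R and altitude calls of CCL19, CCL21, CCL26, CXCL10 (1 probe), CXCL8, CCR10, CCR2, CXCR6, IL1A and IL27 were kept in each of these fits. Without the TL arrays, the breed difference was TH minus DH alone and the altitude difference DH minus DL alone. These are not the averaged effects. Of the 69 probes, 0 were called for either. The sign was that of the averaged effect for 19 of 22 breed and 27 of 31 altitude calls. Altitudes and breeds were apart for 42 and 49 probes (26 and 23 with all arrays), as fewer arrays are compared. This separation was added after seeing the data. For named genes, TH minus DH had the opposite sign to the breed effect in CCR10 (0.69), IL27 (0.36), IL6R (0.71) and TNFSF10 (0.69). DH minus DL had the opposite sign to the altitude effect in CXCL2 (0.29), CXCL12 (-0.0081), IL6 (-0.35), IL6R (-0.52) and TNFSF10 (-0.29). Over fits without 1 array the altitude effect of CCR7 ran from -0.0441 to 0.0048. Under the 75th percentile, effects of named genes changed sign for the interaction in CCL26 (-0.0741) and TNFRSF1B (-0.0688). They also did so for breed in CXCL12 (-0.0185) and IL6R (0.0225) and for altitude in TNFRSF1A (0.42). That scaling moved the median interaction of all tested probes from 0.21 to 0.33 and the share of altitude calls that were higher from 53.4% to 64.1%. The cause of these changes was not tested.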
